A study of Mus musculus with 4 samples.

Results

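The mitochondrial ribosomal protein genes described here were the genes of the deposited table whose symbol is Mrpl or Mrps followed by a number and at most 1 letter, a rule that uses no measured value. It found 78 of 18373 genes, and all 78 passed the count filter. Of these, 51 encode proteins of the large subunit and 26 encode proteins of the small subunit. The remaining 1 is *Mrps36*, which carries the name but is known as a component of the α-ketoglutarate dehydrogenase complex. *Mrps30* and *Mrps18a*, although named for the small subunit, sit in the large subunit and were counted there.

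The mitochondrial ribosome translates the few membrane proteins of the respiratory chain that mitochondrial DNA encodes. All of its proteins are encoded in the nucleus, made in the cytosol and imported, and they assemble with ribosomal RNA made inside the organelle. Some have bacterial counterparts and bind the conserved core, and others are specific to mitochondria and lie mostly on the surface.

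The cells were primary liver sinusoidal endothelial cells (LSECs), the fenestrated cells that line the hepatic sinusoids, from 8-week-old BALB/c mice. The labels give isolation by pronase and collagenase perfusion, and the study's methods describe collagenase perfusion, a Nycodenz gradient and selection with anti-CD146 beads. The cells were cultured for 24 h and transfected for 48 h with a control siRNA (NC, 2 libraries) or with siRNA against *Airn* (siAirn, 2 libraries), and were at day 3. *Airn* is an imprinted long non-coding RNA, and the comparison asked how gene expression changes when it is silenced. RNA was sequenced as single-end reads of 50 bases. Both groups are numbered as biological replicates 1 and 2, and the mice behind each library are not given. The study judged the purity of its LSEC preparations by staining and qRT-PCR, not for each library. The sample titles number the siAirn libraries siAirn1_1 and siAirn1_2 while the treatment text speaks of separate siRNAs, so which siRNA each library received was not settled.

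The libraries held between 17308382 and 18371959 counts, and 13628 genes were tested. The targeted gene did not separate the groups in the direction of its label: *Airn* had 7 and 3 counts in the NC libraries and 11 and 9 in the siAirn libraries. These counts, 0.166 to 0.609 CPM (counts scaled to library size), are too few to judge whether *Airn* was silenced. The study reports an efficient knockdown with the siRNAs that it went on to use, but gives no value for these libraries. The LSEC markers had summed levels of 4056 and 4001 CPM in NC and 3066 and 2739 in siAirn, and 8 of 9 had a negative log2 fold change. All 7 pan-endothelial markers were also lower in siAirn, with sums of 8325 and 8044 CPM against 5882 and 5209. The 9 Kupffer cell and macrophage markers summed to 107 and 145 CPM against 82.4 and 68.7. The 8 stellate cell and fibroblast markers summed to 817 and 999 CPM in NC and 988 and 1359 in siAirn. All 8 were higher in siAirn, 6 of them without overlap. The 9 hepatocyte markers summed to 528 and 687 CPM against 750 and 974, most of it *Alb*, and without *Alb* the other 8 summed to 31.7 and 49.8 CPM against 44.9 and 73.9. The 7 lymphocyte markers summed to between 6.96 and 8.14 CPM. Of these 7, 3 were tested and 0 passed at an adjusted p under 0.05 (edgeR), while limma called the 1 that it tested higher. Among the 3, *Ptprc* was lower (log2 fold change -0.24) and *Cd3e* higher (0.98) in siAirn, each without overlap. Over all genes, 31.9% were lower and 30.9% higher without overlap. At an adjusted p under 0.05 (edgeR), 7 of 9 LSEC, 5 of 7 pan-endothelial and 5 of 9 macrophage markers were lower, against 8.56% of all genes. Called higher were 2 of 8 stellate cell markers (*Col3a1* and *Lum*) and 1 of 7 hepatocyte markers tested (*Apoa1*), against 8.27% of all genes. In this order the median log2 fold changes were -0.58, -0.53, -0.78, 0.42 and 0.39. No marker was at 0 in every library. The LSEC, pan-endothelial and macrophage sums moved with the groups without overlap, and so did the hepatocyte sums with *Alb* included. The stellate cell sums and the hepatocyte sums without *Alb* overlapped between the groups. The part of these cells in the results on mitochondrial ribosomal proteins was not tested. In bulk RNA, fewer cells of a type and less RNA per cell cannot be told apart.

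The genes were expressed at moderate and rather even levels. The levels below are FPKM, a value per length that allows genes to be compared, averaged over the 4 libraries. The median of the 78 genes was 40.3, against 10.2 for all genes tested, 113 for 77 nuclear-encoded subunits of oxidative phosphorylation and 889 for 76 cytosolic ribosomal proteins. A count of 62 genes lay between 20 and 100, 5 lay above 100 and 11 below 20. The large subunit genes had a median of 43.5 (n = 51 genes) and the small subunit genes of 34.3 (n = 26 genes).

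The highest level was that of *Mrpl52*, a protein specific to mitochondria, with 194 FPKM in NC and 191 in siAirn (means of 2 libraries each). *Mrpl20*, which has a bacterial counterpart involved in early assembly of the large subunit, followed with 169 and 155 FPKM, and *Mrpl30* with 114 and 116. At the other end stood *Mrps23*, with 0.925 and 1.17 FPKM, *Mrps35*, with 3.03 and 2.87, and *Mrpl19*, with 7.19 and 7.75. The lowest 2 encode small subunit proteins specific to mitochondria. Their counts were so few that their changes had standard errors of 0.36 on the log2 scale, against a median of 0.08 over the 78 genes. Summed over all 78 genes, the level was 3636 and 3899 FPKM in the NC libraries and 3475 and 3474 in the siAirn libraries. The groups did not overlap in this sum, but both siAirn values lay nearer to the lower NC library than the NC libraries lay to each other. The genes took 0.329% and 0.348% of all counts in NC and 0.313% and 0.316% in siAirn. No test was made on these sums, since 2 libraries against 2 allow no exact permutation p below 0.333.

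**Figure D1:**
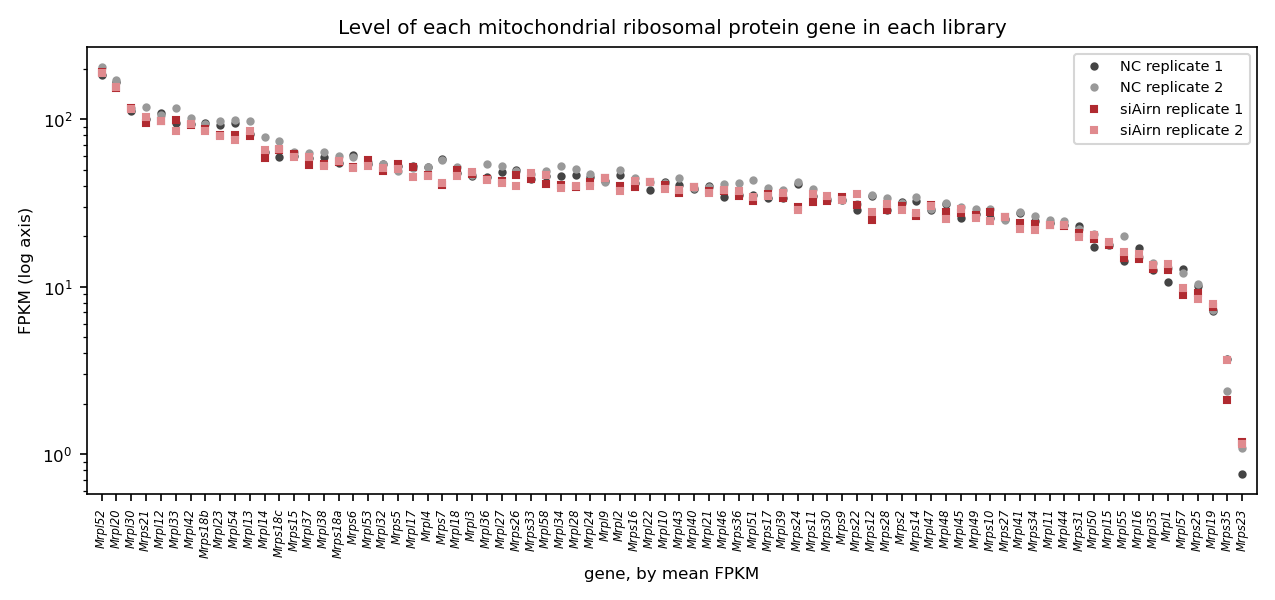
FPKM (log axis) of each of the 78 genes in each of the 4 libraries, ordered by mean FPKM; circles are NC libraries and squares are siAirn libraries. Most genes lie between 20 and 100 FPKM, *Mrpl52* is highest, and *Mrps35* and *Mrps23* fall far below the others.

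Compared with NC, most mitochondrial ribosomal protein genes had slightly lower values in siAirn. Of the 78 genes, 67 had a negative log2 fold change and 11 a positive one, and the median was -0.15 (25th to 75th percentile -0.24 to -0.06), against 0.0013 for all genes tested. Without NC replicate 2 the median of the 78 genes was -0.08. At an adjusted p under 0.05 (edgeR's quasi-likelihood test), 11 genes, or 14.1%, fell and none rose. Over all genes tested the same test called 8.56% lower and 8.27% higher. Without adjustment, 24 genes had a p under 0.05 in the lower direction and 0 in the higher direction, where 17.2% and 16.8% of all genes did. No other tool called any of the 78 higher. Both siAirn libraries lay below both NC libraries for 42 genes, where 31.9% of all genes did so, and above them for 4 genes, where 30.9% did. For the other 32 genes the groups overlapped. At a stricter rule that asks for a 1.4-fold change besides a raw p under 0.05, 1 gene, *Mrps24*, was lower, where 4.72% of all genes were. These p-values measure only the spread between these samples, which may be technical, since nothing states that the libraries came from separate animals.

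Most genes of both subunits had negative values. The median log2 fold change was -0.15 for the 51 genes of the large subunit, of which 44 were lower and 7 passed the test. It was -0.13 for the 26 genes of the small subunit, of which 22 were lower and 4 passed. The difference between the subunits was not tested.

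**Figure D2:**
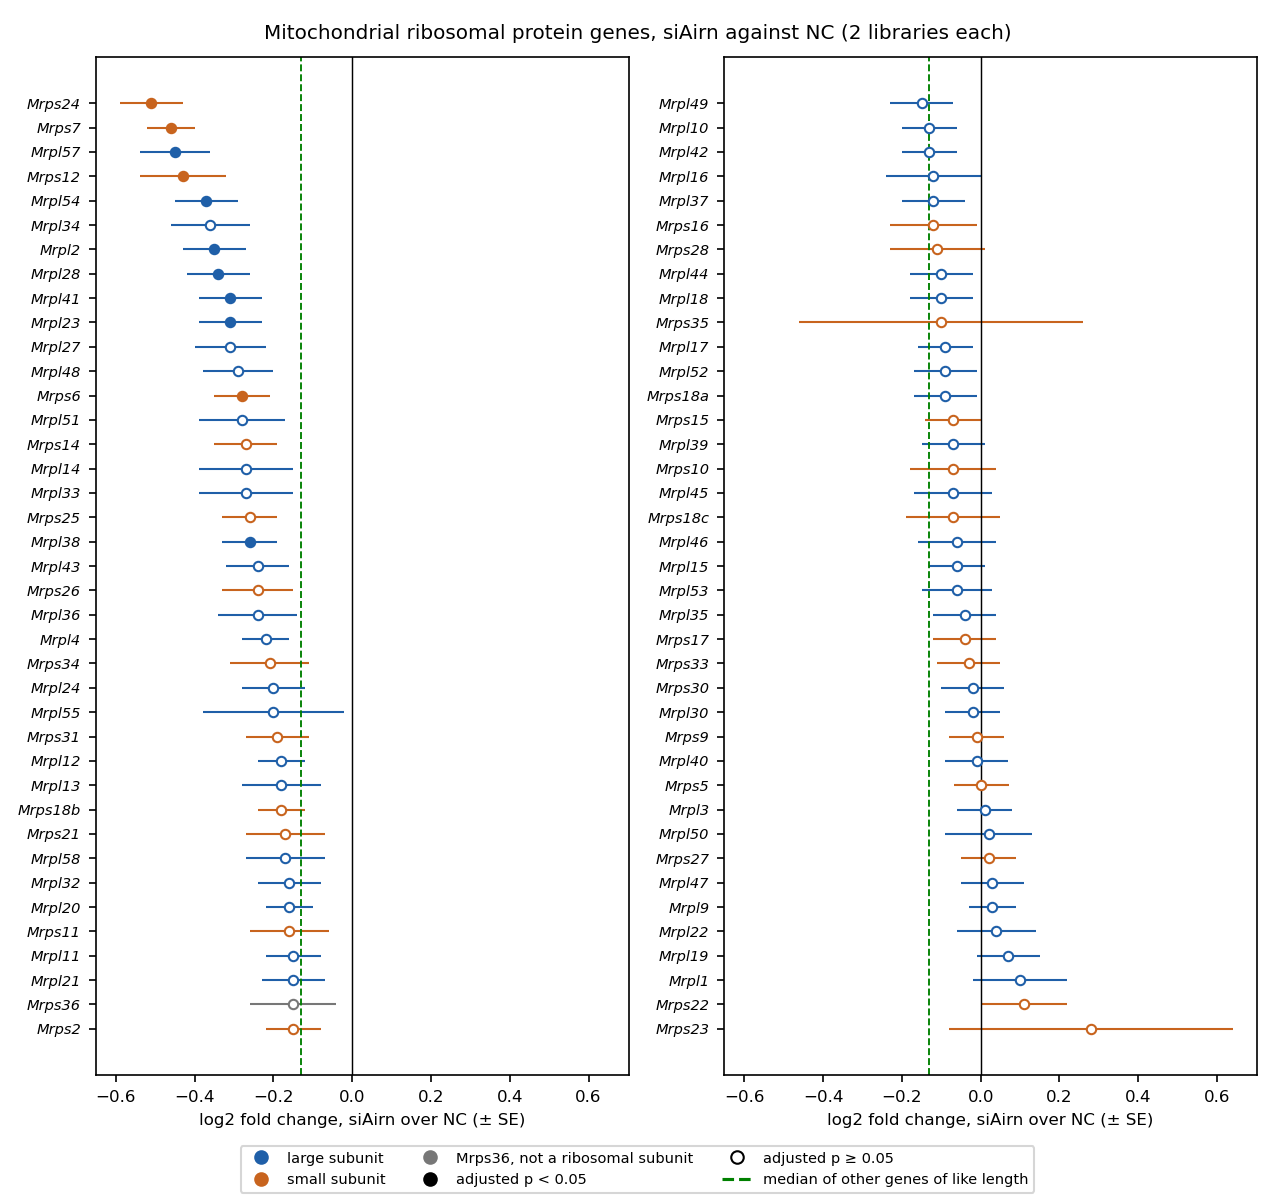
Log2 fold change of siAirn over NC with its standard error for each of the 78 genes, ordered from the most lowered; filled points have an adjusted p under 0.05, blue is the large and orange the small subunit. Of the 78 points 67 lie left of 0, and the dashed line marks the median of other genes of like length, -0.13.

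*Mrps24*, a small subunit protein whose bacterial counterpart lines the channel where mRNA enters, was lowered most. Its level was 30.05 and 29.96 CPM in NC and 21.02 and 21.26 CPM in siAirn, which is 30.01 ± 0.0671 against 21.1 ± 0.166 (SD, n = 2). The groups stood well apart, and the log2 fold change was -0.51 (SE 0.08, adjusted p 0.0134, edgeR). *Mrps7*, whose bacterial counterpart organises the head of the small subunit, had 76.3 and 77.1 CPM in NC and 55.2 and 56.6 CPM in siAirn. The gap was again far larger than the spread within either group, with a log2 fold change of -0.46 (SE 0.06, adjusted p 0.00906, edgeR). *Mrpl57*, a large subunit protein specific to mitochondria, had 29.5 and 28.5 CPM in NC and 20.2 and 22.3 CPM in siAirn. Its log2 fold change was -0.45 (SE 0.09, adjusted p 0.0237, edgeR), with no overlap between groups. *Mrps12*, whose bacterial counterpart lies at the decoding centre, had 20.7 and 21.5 CPM in NC and 14.5 and 16.7 CPM in siAirn. Its siAirn libraries differed more from each other than its NC libraries did, and its log2 fold change was -0.43 (SE 0.11, adjusted p 0.0399, edgeR).

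The other 7 genes that passed changed by less, with log2 fold changes from -0.37 to -0.26 and adjusted p-values from 0.0227 to 0.0491 (edgeR). *Mrpl54*, a large subunit protein specific to mitochondria, had 45.1 and 46.8 CPM in NC and 36.5 and 34.6 CPM in siAirn. *Mrpl2*, whose bacterial counterpart lies near the peptidyl transferase centre, had 42.8 and 45.6 CPM against 35.5 and 33.9. *Mrpl28* had 44.7 and 48.1 CPM against 36.5 and 37.1. In these 3 genes the lowest NC library was above the highest siAirn library by more than the spread within either group. *Mrpl41*, specific to mitochondria, had 28.6 and 29.8 CPM in NC and 23.4 and 23.7 CPM in siAirn. *Mrpl23*, whose bacterial counterpart stands at the exit of the peptide tunnel, had 43.5 and 46.2 CPM against 36.1 and 36.4. *Mrps6*, a small subunit protein with a bacterial counterpart, had 41.0 and 40.2 CPM against 33.2 and 33.4. *Mrpl38*, specific to mitochondria, had 77.3 and 83.2 CPM in NC and 67.9 and 66.5 CPM in siAirn. The groups did not overlap in any of the 11 genes, nor in 31 lower genes that did not pass the test. Over all genes, 31.9% were lower without overlap. The 11 were picked by a test of the same libraries, so their lack of overlap is no separate support.

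**Figure D3:**
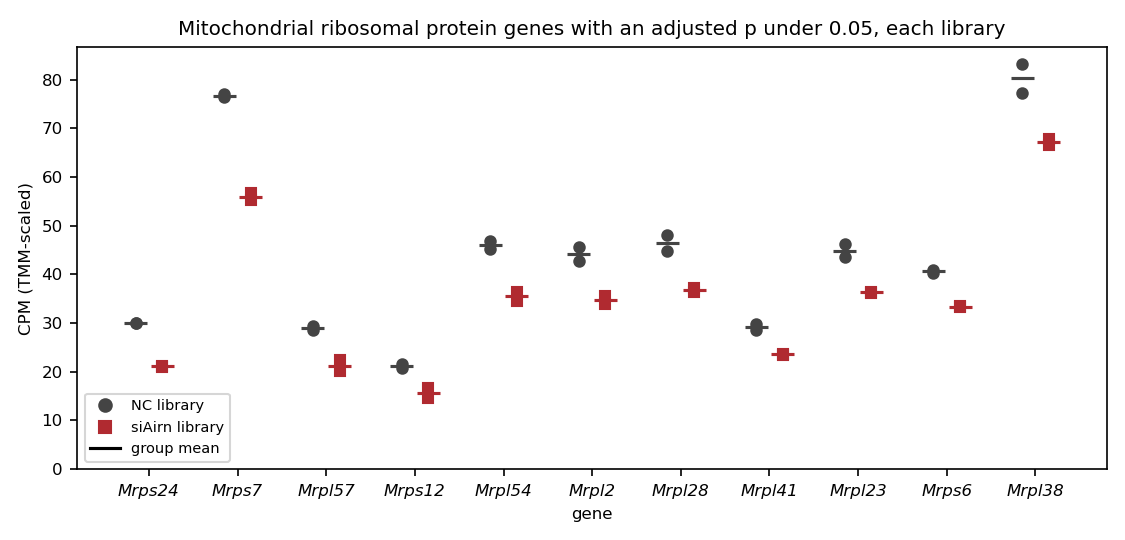
CPM in each library for the 11 genes with an adjusted p under 0.05, with bars at the group means; circles are NC libraries and squares siAirn libraries. The siAirn libraries lie below the NC libraries in each gene, and the gap is widest relative to the level in *Mrps24*.

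No call held without either of the NC libraries. Without NC replicate 1, 0 of the 78 genes passed, and without NC replicate 2 also 0, with 33 genes (0.236%) and 0 genes called lower among all genes tested. At an unadjusted p under 0.05, 23 and 10 of the 78 were lower in these 2 fits, where 13% and 11.4% of all genes were. Without siAirn replicate 1, 6 genes passed (7.69%, against 8.73% of all genes), namely *Mrpl2*, *Mrpl54*, *Mrps24* and *Mrps7* of the 11, and *Mrps25* and *Mrps26*. Without siAirn replicate 2, 4 passed (5.13%, against 5.2%), namely *Mrpl57*, *Mrps12*, *Mrps24* and *Mrps7*. Such a fit leaves 1 library in a group and assumes that it varies like the others. DESeq2 called 4 of the 11 genes and none of the other 67, namely *Mrpl54*, *Mrpl57*, *Mrps24* and *Mrps7*. That is 5.13% of the 78, of which *Mrps23* and *Mrps35* had no adjusted p, where DESeq2 called 9.15% of the 9981 genes to which it gave an adjusted p.

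Genes just short of the threshold were *Mrps25* (adjusted p 0.0532), *Mrpl27* (0.0548), *Mrpl34* (0.0551) and *Mrps14* (0.0571), by edgeR, all with negative log2 fold changes. *Mrpl34*, a large subunit protein with a bacterial counterpart, had 24.3 and 27.9 CPM in NC and 20.6 and 20.1 in siAirn, a log2 fold change of -0.36. *Mrpl12*, known to bind the mitochondrial RNA polymerase as well as the ribosome, had 91.0 and 89.4 CPM against 78.6 and 80.3. Its groups did not overlap, but its log2 fold change of -0.18 did not pass (adjusted p 0.0843, edgeR). With replicate number as a block, a fit described at the end, *Mrpl12* passed (adjusted p 0.0204, edgeR). *Mrpl58*, a peptidyl-tRNA hydrolase that frees stalled ribosomes and became part of the large subunit, had a log2 fold change of -0.17. *Mrps36* had one of -0.15 and *Mrps30* of -0.02. The paralogs that descend from a bacterial small subunit protein had values of -0.09 (*Mrps18a*), -0.18 (*Mrps18b*) and -0.07 (*Mrps18c*), and none of them passed.

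The highest positive values were small. Apart from the scarce *Mrps23*, with a log2 fold change of 0.28 and a standard error of 0.36, the first was that of *Mrps22*, a small subunit protein specific to mitochondria. It had 31.6 and 34.9 CPM in NC and 33.0 and 38.9 CPM in siAirn, a log2 fold change of 0.11 with overlapping groups. *Mrpl1* followed with 0.10, *Mrpl19* with 0.07, *Mrpl22* with 0.04 and *Mrpl9* with 0.03, all encoding large subunit proteins with bacterial counterparts. None had an adjusted p below 0.496 (edgeR), and *Mrpl19* had negative values of -0.11 and -0.14 in the fits corrected for length that are described next.

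The genes encode short transcripts, so they were set beside other genes of like length. The length implied by count, FPKM and library total had a median of 931 bases (range 291 to 5920) in the 78 genes and of 2743 bases over all genes tested. Only 7.76% of tested genes were shorter than that median. Among the 4184 other genes between 492 and 2010 bases, the 10th and 90th percentiles of the 78 genes, the median log2 fold change was -0.13. In that set 69.8% had a negative value, 13.6% were called lower and 1.43% higher. The 14.1% called lower among the mitochondrial ribosomal proteins was close to that share. Within the band these other genes were longer, with a median of 1400 bases against 931 in the 78 genes. The share with a negative value, 85.9%, was above the 69.8% of this longer set, and the difference was not tested. Among 1552 other genes of like length and FPKM, 76.5% had a negative value, 19.5% were called lower and the median was again -0.13. Among 2686 of like length and GC content the figures were 70.1%, 13.03% and -0.12.

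The log2 fold change varied with length in both sets. Ranked by length, the 26 shortest of the 78 genes and the next 26 had a median of -0.17 each, and the 26 longest one of -0.06. With the other genes split by length into 10 groups of equal size, the median was -0.20 in the shortest group, where 16.1% were called lower, and 0.25 in the longest, where 1.62% were. Across genes, which are not independent replicates, Spearman's rho between the log2 fold change and length was 0.292 in the 78 genes and 0.397 in the others. With GC content it was -0.402 (n = 78 genes) and -0.333, and with FPKM -0.20 and -0.227. All of these genes share the same 4 libraries.

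**Figure D4:**
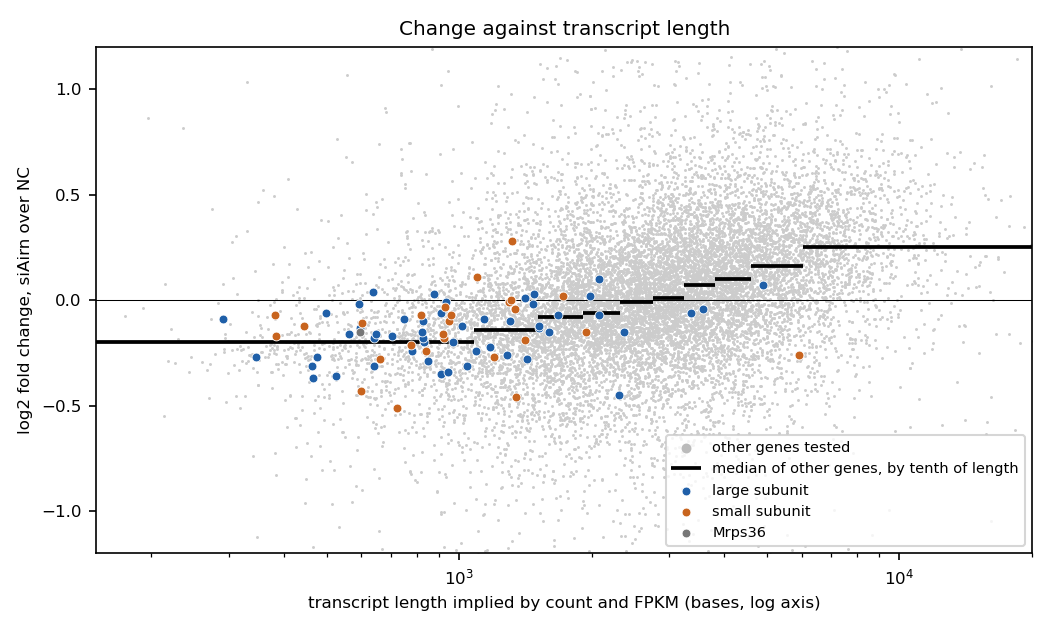
Log2 fold change of siAirn over NC against implied transcript length (log axis); grey points are other genes tested, black lines the medians of these in 10 groups of equal size by length, and coloured points the 78 genes. The axes leave out 207 other genes, the medians rise from -0.20 to 0.25 with length, and most coloured points lie over the short, lower end.

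A fit that removed a smooth trend with GC content and length from each library moved the median of the 78 genes to -0.05, against -0.03 over all genes in that fit, and left 50 of the 78 with a negative value. It called 4 of the genes lower, where it called 6.52% of 12845 genes. These were *Mrps25* (log2 fold change -0.54, adjusted p 0.0133), *Mrpl57* (-0.55, 0.0200), *Mrps7* (-0.29, 0.0361) and *Mrps14* (-0.31, 0.0491), by edgeR. *Mrps24* had -0.29 in that fit and no longer passed (adjusted p 0.0911, edgeR). *Mrps25*, the longest of the 78 genes (5920 bases), had -0.26 without a correction (adjusted p 0.0532, edgeR), so the correction made its value more negative. With a trend on length alone, the median was -0.02, against -0.04 over all genes, 47 genes had a negative value, and *Mrpl57*, *Mrps24*, *Mrps7* and *Mrps25* passed, which is 5.13% of the 78, against 8.5% of all genes. Of the 11 genes, *Mrpl57* and *Mrps7* passed in all 3 fits, *Mrps24* passed in 2, and the other 8 passed only without a correction.

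Other short genes of protein synthesis and respiration showed lower values as well. Of 76 cytosolic ribosomal proteins tested, 69 were lower, 24 passed the test (31.6%), none was called higher by edgeR, and the median was -0.22. DESeq2 called 34 lower and none higher, where it called 9.15% of all genes lower. With limma on log2(FPKM + 1), 6 of 76 were called lower, near the 7.03% of all genes, and 1, *Rps13*, higher. Of 77 nuclear-encoded subunits of oxidative phosphorylation, 76 were lower, 16 passed (20.8%), none was called higher by edgeR, DESeq2 or limma, and the median was also -0.22. DESeq2 called 14 of them lower, against 9.15% of all genes, and limma 8 of 76, against 7.03%. Without NC replicate 1, and also without NC replicate 2, edgeR called 0 genes of either list, while at an unadjusted p under 0.05 it found 57 and 26 cytosolic ribosomal proteins and 51 and 16 subunits of oxidative phosphorylation lower. Their median lengths were 578 and 596 bases, shorter than those of the mitochondrial ribosomal proteins. With the GC and length correction the medians were -0.06 and -0.07. Examples that fell were *Rpl27a*, with a log2 fold change of -0.67, and *Ndufa8*, a subunit of complex I, with -0.55. The difference between the 3 groups was not tested.

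Other genes of mitochondrial translation encode longer transcripts, with median lengths from 1518 bases (5 subunits) to 2410 bases (tRNA synthetases). Of the 5 ribosomal subunits without an Mrp symbol, *Aurkaip1*, a small subunit protein, fell from 60.4 and 67.1 CPM to 50.6 and 50.5 CPM (log2 fold change -0.34, adjusted p 0.0294, edgeR). The others had -0.21 (*Gadd45gip1*), -0.06 (*Dap3*), -0.04 (*Chchd1*) and 0.18 (*Ptcd3*), and none passed. Of 28 assembly factors 0 fell and 1 rose by edgeR, *Fastkd2*, an RNA-binding protein needed for the large ribosomal RNA, with a log2 fold change of 0.30 (adjusted p 0.0488, edgeR). The median of the assembly factors was -0.10, and their values ran down to -0.52 in *Rpusd3*, which did not pass. At an unadjusted p under 0.05, 2 were lower and 2 higher, DESeq2 called none, and limma called 1 lower. Of 15 translation factors, *Mrrf*, the ribosome recycling factor, fell (-0.32, adjusted p 0.0216, edgeR), and the median was -0.06. Of 20 mitochondrial tRNA synthetases 0 passed by edgeR, with a median of -0.01; 1 was lower at an unadjusted p under 0.05, DESeq2 called 0 and limma 1. Of 22 genes of mitochondrial transcription and RNA processing, *Trmt10c*, a subunit of the mitochondrial RNase P, rose (0.31, adjusted p 0.0333, edgeR), and the median was 0.09. Together 1 of these 85 genes, assembly factors included and the 5 subunits left out, fell and 2 rose, with a median of -0.02. Of those 3 genes, DESeq2 called only *Mrrf*. With the GC and length correction *Mrrf* also kept its call (-0.31, adjusted p 0.0317, edgeR). In that fit *Aurkaip1* had -0.13 (adjusted p 0.215), *Fastkd2* 0.19 (0.176) and *Trmt10c* 0.25 (0.0677), by edgeR, and none of these passed. All 4 calls were lost when either NC library was left out, with adjusted p-values from 0.081 to 0.238 (edgeR). *Mrrf*, *Aurkaip1* and *Fastkd2* passed without siAirn replicate 1, and none of the 4 without siAirn replicate 2. Of 9 regulators of mitochondrial biogenesis, 0 passed in either direction, 1 was higher at an unadjusted p under 0.05, and the median was 0.08. The genes encoded by mitochondrial DNA were not analysed here.

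**Figure D5:**
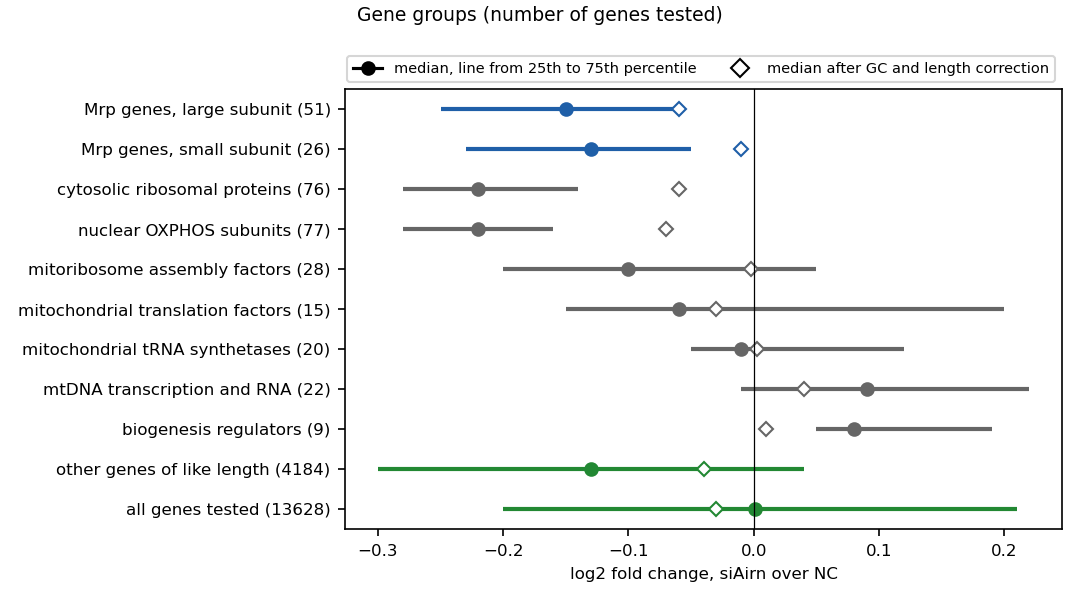
Median log2 fold change of siAirn over NC in each gene group (filled circles, with a line from the 25th to the 75th percentile), and the median after correction for GC content and length (open diamonds); the number of genes tested is in brackets. The medians of the mitochondrial ribosomal proteins, -0.15 and -0.13, lie beside the -0.13 of other genes of like length, and most groups move towards 0 with the correction.

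The promoters were searched for motifs of factors known for nuclear genes of mitochondrial function. RefSeq windows (GRCm38.p6) from 250 bases before to 50 bases after the start of a gene matched 69 of the 78 genes. They were searched on both strands for the core of an ETS factor site, CCGGAAG, which 26 of the 69 genes (37.7%) held. It was in 19.4% of the windows of 10340 other genes tested and in 9.93% of all 27025 windows. In 20 of the 26 genes a match began within 50 bases of the start. The NRF1 motif, GCATGCGC, was in 8 windows (11.6%), against 5.8% of other tested genes and 3.05% of all windows. The YY1 motif, AAGATGGCG, was also in 8 (11.6%), against 3.38% and 1.64%. The CCAAT box was in 27 (39.1%), against 43.1% and 41.1%. A promoter was counted once however many matches it held, and NRF1 matches on opposite strands can overlap. Of the 9 genes with a window that fell, 2 held the ETS core, and of the 60 others 24 did. These counts were 0 and 8 for the NRF1 motif, 1 and 7 for the YY1 motif, and 4 and 23 for the CCAAT box. A match is a description of letters and not evidence of a factor's binding.

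The stretches below run from 100 bases before the start to 30 bases from it, 5′ to 3′ on the strand of the gene, for 3 of the most lowered genes, for *Mrps22* with the highest positive value among well-counted genes, and for *Mrps18a*, which held both the ETS core and the YY1 motif. Capitals mark these motifs. Positions are counted with 1 as the first base of the gene and -1 as the base before it. The ETS core stood at 5 to 11 in *Mrpl57* (chr14:57826139-57826268, plus strand), at 2 to 8 in *Mrps12* (chr7:28741792-28741921, minus strand) and at -11 to -5 in *Mrps22* (chr9:98601650-98601779, minus strand). In *Mrps18a* (chr17:46110904-46111033, plus strand) it stood at -26 to -20, before the YY1 motif at 12 to 20. The window of *Mrps7* (chr11:115604040-115604169, plus strand) held no exact match to the ETS, NRF1 and YY1 motifs. Near matches were not searched for, and aagatggct near the end of its stretch differs from the YY1 motif in the last base. *Mrps24*, the gene lowered most, is not shown, and its YY1 motif stood at 37 to 45, past the end of such a stretch.
Mrpl57: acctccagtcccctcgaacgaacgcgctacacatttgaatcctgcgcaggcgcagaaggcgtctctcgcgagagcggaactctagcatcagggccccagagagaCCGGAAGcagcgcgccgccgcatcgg
Mrps12: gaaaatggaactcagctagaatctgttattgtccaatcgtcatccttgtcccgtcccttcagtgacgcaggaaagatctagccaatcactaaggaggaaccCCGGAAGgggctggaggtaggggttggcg
Mrps7: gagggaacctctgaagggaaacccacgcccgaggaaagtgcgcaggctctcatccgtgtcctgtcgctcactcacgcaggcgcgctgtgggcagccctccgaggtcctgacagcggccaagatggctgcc
Mrps22: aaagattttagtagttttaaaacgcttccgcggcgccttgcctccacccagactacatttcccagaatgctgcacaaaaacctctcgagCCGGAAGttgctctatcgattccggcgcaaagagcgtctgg
Mrps18a: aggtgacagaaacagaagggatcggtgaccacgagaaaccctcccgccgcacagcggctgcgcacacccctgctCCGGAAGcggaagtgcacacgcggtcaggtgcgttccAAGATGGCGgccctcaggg
The ETS core near the start was thus present both in genes that fell, *Mrpl57* and *Mrps12*, and in *Mrps22*, which did not.

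Of the 78 genes, 23 start back to back with another protein-coding gene, with starts at most 1000 bases apart or overlapping by at most 200 bases (GENCODE M21). In the 22 pairs whose partner was tested, 11 partners had a negative and 11 a positive log2 fold change, with a median of 0.02, against -0.17 for the mitochondrial ribosomal proteins. Both genes fell in 2 pairs, *Mrpl2* with *Klc4* (-0.35 and -0.51) and *Mrpl54* with *Apba3* (-0.37 and -0.36). In all, 2 of the 22 partners were called lower and 1 higher, where 8.56% and 8.27% of all genes were. *Mrps7* had -0.46 while its partner *Gga3* had 0.08, and *Mrpl57* had -0.45 while *Ska3* had 0.60, which did not pass (adjusted p 0.177, edgeR). *Mrps12* had -0.43 and *Sars2*, the mitochondrial seryl-tRNA synthetase, -0.32 (adjusted p 0.129, edgeR). The partner of *Mrps18b*, *Ppp1r10*, rose by 0.30 on the log2 scale (adjusted p 0.0254, edgeR), while *Mrps18b* had -0.18. The difference between partners was not tested. The partners were not matched for length, with which the log2 fold change varied, and the median over all genes tested was 0.0013.

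Some of these values rest on reads that other genes could share. In GENCODE M21, 14 of the 78 genes had over 10% of their exonic bases under exons of the opposite strand, and 12 had over 10% of their 50-base windows in another gene. Whether the counting used strand is not given in the sources used here. Among the 11 genes that passed, the windows shared were 17.3% in *Mrps6*, 11.8% in *Mrps24* (with *Urgcp*), 11.6% in *Mrpl23* (with the pseudogene *Mrpl23-ps1*) and 11.3% in *Mrpl41*. In *Mrps7*, 11.9% of exonic bases lay under exons of the opposite strand, and in *Mrps25* 69.8% did. For *Mrpl53*, 82.0% of windows were shared, so its level is uncertain.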

How the data were processed

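The data are RNA-seq of primary LSECs from BALB/c mice, with 2 NC and 2 siAirn libraries grouped by their labels. The authors deposited 1 table with estimated counts and a second, unnamed value for each gene and library. As deposited, the estimated counts carry no normalization, and 76.5% to 76.8% of them are exactly whole as written, with no tolerance. The second deposited value was taken for FPKM, since it scales with count, length and library total in that way. The submitters' processing notes name BWA, Bowtie2 and RSEM with no version, and the human build hg19 for these mouse samples. The group means deposited by the authors were not used.

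Counts were rounded and tested in R 4.3.3 with edgeR 4.0.16 (TMM, filterByExpr, glmQLFit and glmQLFTest), with Benjamini-Hochberg adjustment over 13628 genes. CPM were TMM-scaled. A count of 0 would allow up to 3 counts, 0.166 to 0.175 CPM, for counting error only. Transcript length was the value implied by count, FPKM and library total. GC content and gene neighbours came from GENCODE M21 and promoter windows from RefSeq (GRCm38.p6). Single genes were named by a fixed rule: those with an adjusted p under 0.05, the 5 highest and 5 lowest log2 fold changes at 5 CPM or more, the 3 highest and 3 lowest levels, the *Mrps18* paralogs, *Mrpl12*, *Mrpl58*, *Mrps30* and *Mrps36*. Genes near the threshold and genes named for promoters, neighbours or shared sequence were chosen after their values were seen. The genes and lists were chosen with earlier results of these data known. The tests were checked on simulated data. Alternatives were DESeq2 1.42.0, limma 3.58.1 on log2(FPKM + 1) and log2(FPKM + 0.1), other filters and scaling, a likelihood-ratio test, a replicate block, corrections for length with and without GC content (natural splines with 5 degrees of freedom), and each library left out in turn. The correction for length alone was added after seeing the data.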

Additional observations from a re-analysis of the deposited data

How the results depend on the processing

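The count of 11 lowered genes became 4 with DESeq2, 1 where a 1.4-fold change and a raw p under 0.05 were asked for, 4 with the length correction, 4 with the GC and length correction, and between 0 and 6 with a library left out. It ran from 8 to 15 with other filters, upper-quartile scaling, limma and the likelihood-ratio test, in which 6.05% to 11.6% of all genes were called lower. The 15 came from the likelihood-ratio test, which also gave the 11.6%. No setting called any of the 78 higher. The median log2 fold change of the 78 genes, -0.15, became -0.02 with the length correction and -0.05 with the GC and length correction, and ran from -0.18 to -0.08 with a library left out. It lay between -0.16 and -0.10 in every other setting run. The median of other genes of like length, -0.13, became -0.09 with limma at either pseudocount, -0.04 with either correction, -0.02 over all lengths from the shortest to the longest of the 78 genes, and ran from -0.16 to -0.10 with a library left out. The cause of these shifts was not tested, apart from the trends that the corrections remove by construction. A fit with replicate number as a replicate block called 27 genes lower (34.6%), and 17.9% of all genes, against 8.56% without the block. Among the 16 added calls were *Mrpl12*, *Mrpl27*, *Mrpl34*, *Mrps14*, *Mrps18b* and *Mrps25*, given above as not passing without the block. *Mrpl20* and *Mrps26* were also among them. Same-numbered libraries deviated together with r = 0.27 over 13628 genes, but with 2 pairs they share only a number.

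Signs turned in single genes, none of which passed in either setting. With limma, *Mrpl30* and *Mrps30* had 0.02 at either pseudocount. With the length correction, *Mrpl19* had -0.11, *Mrpl30* 0.14, *Mrpl52* 0.05, *Mrps18a* 0.06, *Mrps18c* 0.09, *Mrps30* 0.06, *Mrps35* 0.03 and *Mrps36* 0.01. With the GC and length correction, *Mrpl12* had 0.04, *Mrpl19* -0.14, *Mrpl30* 0.05, *Mrpl52* 0.10, *Mrps18a* 0.13 and *Mrps18c* 0.01. With a library left out, the value ran in *Mrpl1* from -0.03 to 0.25, in *Mrpl22* from -0.06 to 0.14, in *Mrpl30* from -0.05 to 0.02, in *Mrps18c* from -0.21 to 0.09, in *Mrps22* from -0.01 to 0.22, in *Mrps30* from -0.09 to 0.04 and in *Mrps35* from -0.53 to 0.24. Of 420 values of 28 named genes under the alternatives, 312 kept direction and call, 79 kept direction and lost the call, 3 gained it and 26 turned. Depth was similar in all libraries and limits mainly *Mrps23* and *Mrps35*.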
